A study of Mus musculus with 2 samples.

Results

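PI3K, AKT and mTOR signalling was examined through 32 of its component genes in effector regulatory T cells of Nrn1-/- and Nrn1+/- mice. The 32 genes were chosen by symbol, from 46511 gene rows in each library, as 21 activating components, 9 negative regulators and 2 genes with both roles. All 32 were found once in both libraries and all averaged 1 FPKM or more over the libraries (fragments per kilobase of transcript, scaled to library depth). That minimum was used for every count here except that of the B cell markers. Both genotypes were C57BL/6 mice that also carried the Foxp3DTRgfp allele, and 1 library was made per genotype from cells sorted by markers that included CD4+, CD25+, CD44-high and Foxp3-GFP+. One library was of Nrn1-/- cells, null for neuritin, a small membrane-anchored protein first described in neurons. The other was of Nrn1+/- cells, heterozygous by genotype label although its title calls it wild type. The sources used here do not state the ages of the mice, how many stand behind a library, or which part of Nrn1 the null allele lacks.

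Class I PI3K is recruited to T cell, costimulatory and cytokine receptors and makes the membrane lipid PIP3, which brings the kinases PDK1 and AKT together at the membrane. AKT switches off FOXO transcription factors and the TSC complex, which frees the small GTPase RHEB to activate mTOR complex 1 on the lysosome, where Rag GTPases report amino acid supply. Regulatory T cells are known for holding PI3K and AKT signalling lower than conventional T cells do, through phosphatases and inhibitors that act on lipids and on AKT.

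With 1 library per genotype there was no spread between animals to set a difference against, so no test was possible and no p-value is given. A pair of measures stands in its place. The first is the number of genes that were at least 1.5-fold higher or lower on the scale of log2(FPKM + 1), read beside the same share of all 12344 genes tested, which was 7.5% for higher and 5.27% for lower in the Nrn1-/- library. The second is a 95% interval of the FPKM ratio that covers counting error only, from fragment numbers estimated with the spacing of low values. In bulk RNA, fewer cells that express a gene and less of its RNA per cell cannot be told apart.

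The target gene went with the labels, at 4.62 FPKM of Nrn1 in the Nrn1-/- library, against 66.5 FPKM in the Nrn1+/- library. The defining genes of the sorted cells were high in both, with Foxp3 at 195 FPKM in Nrn1-/- cells and 257 FPKM in Nrn1+/- cells. The 8 myeloid markers summed to 0.825 FPKM in Nrn1-/- cells and 0.8995 FPKM in Nrn1+/- cells, with S100a8 and S100a9 listed at 0 in both. All 7 B cell markers were higher in the Nrn1-/- library (all but Cd79b with upper-quartile scaling or at a sum of 1000000 per library), summing to 8.38 FPKM against 6.21 FPKM in the Nrn1+/- library. Of the 7, 6 averaged under 1 FPKM, near the floor. Only Cd79b passed that minimum, at 5.14 FPKM in Nrn1-/- cells and 4.85 FPKM in Nrn1+/- cells, the largest part of both sums. None of the B cell markers was listed at 0, and their part in the values below was not tested.

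The components as a whole lay close to the middle of all genes. Of the 32, 16 were higher and 16 lower in the Nrn1-/- library by any amount, as were 52.3% and 47.7% of all genes, and the median log2 ratio was 0.0025, against 0.019 over all genes tested. No component was at least 1.5-fold higher, where 7.5% of all genes were. One component, Phlpp1, was at least 1.5-fold lower, where 5.27% of all genes were. Over protein-coding genes alone these background shares were 7.01% and 3.69%. At 2-fold no component was called, where 1.98% of all genes were higher and 1.11% lower. The log2 ratios of 20 components fell within the middle 50% of all genes tested, which runs from -0.22 to 0.26. The counting interval lay wholly above a ratio of 1 for 9 components and wholly below it for 13. Intervals were made for the components alone, so no share over all genes can be set beside these counts. Both counts are for the values as deposited and would change with the scaling of the libraries. Those counts depend on fragment numbers estimated on the shortest coding transcript, where a longer one would narrow the interval. Fragment counting so estimated did not cover those 22 differences, while PCR copies and variation between mice were not measured.

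**Figure D1:**
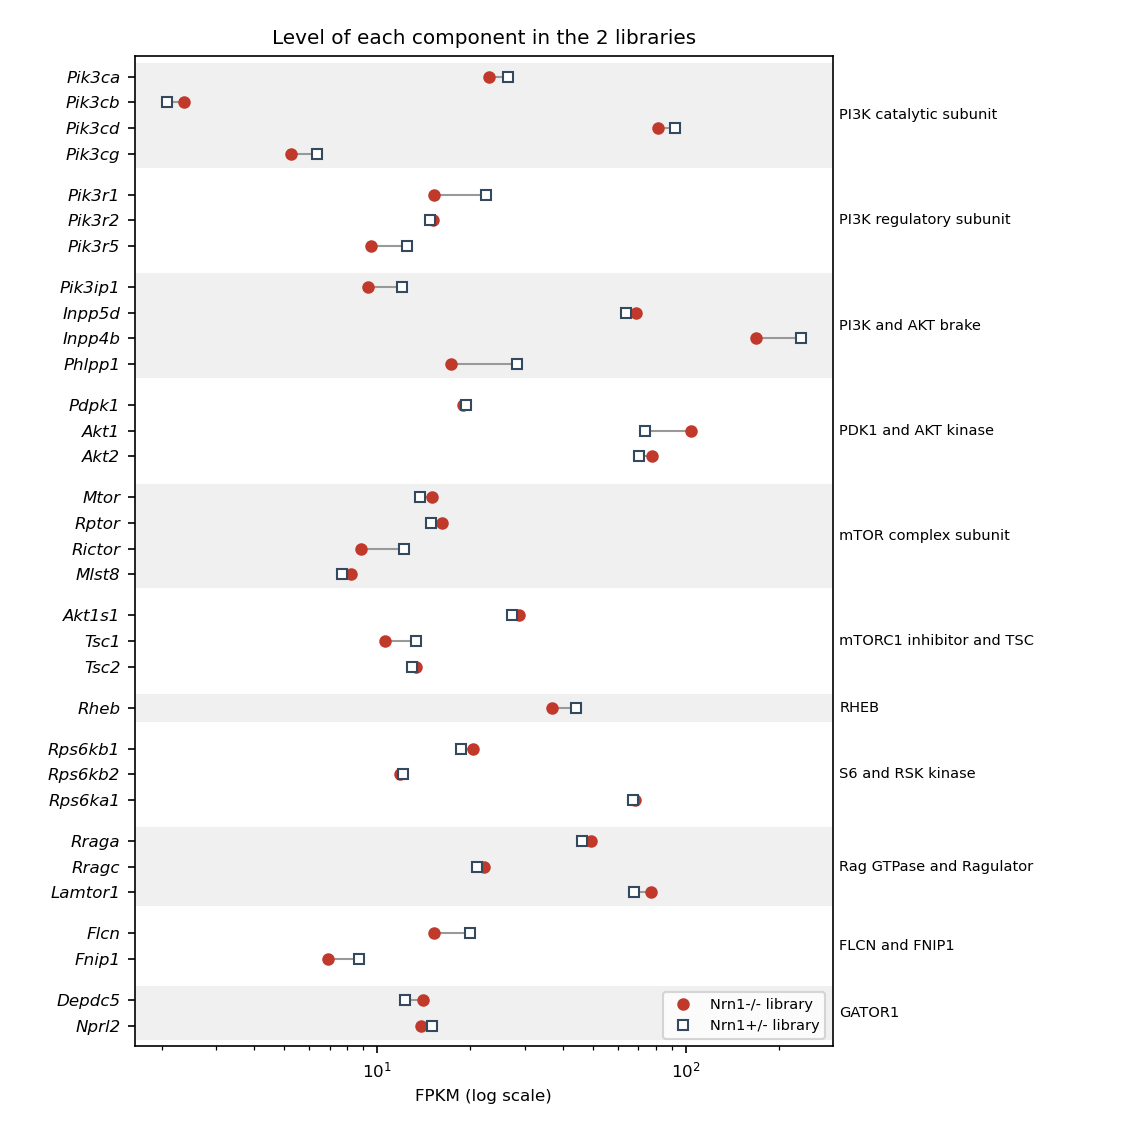
FPKM (horizontal log axis) of each of the 32 components in the Nrn1-/- library (filled circles) and the Nrn1+/- library (open squares), 1 library per genotype, grouped by role. Most pairs nearly coincide. Phlpp1, Pik3r1, Inpp4b and Rictor stand to the left in the Nrn1-/- library, and Akt1 stands to the right.

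Components with the largest differences came from both arms of the pathway. The 3 lowest log2 ratios were those of Phlpp1, Pik3r1 and Inpp4b. Akt1, Lamtor1 and Depdc5 had the 3 highest. Promoters of the components at the extremes, Akt1 and Phlpp1, and of the PI3K inhibitor gene Pik3ip1 are shown so that the start regions of a kinase gene and of its brakes can be read side by side. The sequences are from RefSeq on GRCm38.p6 and run from 250 bases before to 50 after the annotated start, 5′ to 3′ on the gene's strand. Capitals mark a forkhead core, GTAAACA on either strand. Akt1 has a pair of annotated starts, and the upstream one, which holds the forkhead match, is shown (chr12:112674835-112675134, minus strand). Phlpp1 is at chr1:106171619-106171918 and Pik3ip1 at chr11:3330481-3330780, both on the plus strand.
Akt1: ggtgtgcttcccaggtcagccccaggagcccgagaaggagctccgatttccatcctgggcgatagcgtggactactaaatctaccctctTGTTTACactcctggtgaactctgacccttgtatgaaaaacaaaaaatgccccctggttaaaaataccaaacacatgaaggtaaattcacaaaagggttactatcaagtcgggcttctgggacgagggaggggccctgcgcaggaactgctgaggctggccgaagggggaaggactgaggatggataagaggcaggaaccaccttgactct
Phlpp1: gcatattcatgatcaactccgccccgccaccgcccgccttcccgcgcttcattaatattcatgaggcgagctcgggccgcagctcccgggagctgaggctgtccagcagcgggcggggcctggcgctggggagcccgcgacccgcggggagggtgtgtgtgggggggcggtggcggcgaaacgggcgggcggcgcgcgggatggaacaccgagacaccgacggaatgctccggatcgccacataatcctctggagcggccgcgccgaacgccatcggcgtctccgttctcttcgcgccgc
Pik3ip1: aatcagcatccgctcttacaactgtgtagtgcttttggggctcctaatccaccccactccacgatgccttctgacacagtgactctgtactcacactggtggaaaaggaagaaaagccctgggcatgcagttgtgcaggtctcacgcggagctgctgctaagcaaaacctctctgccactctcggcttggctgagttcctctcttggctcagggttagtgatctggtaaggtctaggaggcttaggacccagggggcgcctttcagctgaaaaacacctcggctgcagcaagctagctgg

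Forkhead factors include the FOXO proteins that AKT switches off. The match to GTAAACA in the Akt1 window was 1 of 2 among the 42 promoters annotated for 31 of the components, the other being in Pik3cg. That is 4.76% of component promoters, against 3.65% of all 32851 promoters of the same length. The E-box CACGTG, searched on both strands, was in 4 component promoters, those of Fnip1, Lamtor1, Rheb and Rragc, or 9.52% against 7.15% of all promoters. It does not overlap the forkhead core. The letters of neither motif occur in the Phlpp1 and Pik3ip1 windows.

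Among the catalytic subunits of PI3K, Pik3cd, which encodes the delta isoform enriched in leukocytes, was the most abundant class I catalytic gene in both libraries, at 81.2 FPKM in Nrn1-/- cells and 91.9 FPKM in Nrn1+/- cells. Pik3ca, the broadly expressed alpha isoform, was at 23.0 FPKM in Nrn1-/- cells and 26.5 FPKM in Nrn1+/- cells. Pik3cg, the gamma isoform that acts below G protein-coupled receptors, was at 5.24 FPKM in Nrn1-/- cells and 6.37 FPKM in Nrn1+/- cells. The ratios of Pik3cd, Pik3ca and Pik3cg were 0.883, 0.866 and 0.822, all lower in Nrn1-/- cells. Pik3cb, the beta isoform, was the least abundant, at 2.37 FPKM in Nrn1-/- cells and 2.08 FPKM in Nrn1+/- cells, and ran the other way, except at a sum of 1000000, with a ratio of 1.14 (95% counting interval 1.02 to 1.27). The make-up of the family hardly differed. Pik3cd supplied 72.6% of the summed catalytic FPKM in Nrn1-/- cells and 72.4% in Nrn1+/- cells, and Pik3ca 20.5% in Nrn1-/- cells and 20.9% in Nrn1+/- cells.

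The regulatory subunits of PI3K hold the catalytic subunit stable and quiet until a receptor recruits it. Pik3r1 (GRCm38 chromosome 13, 101680563 to 101768217, minus strand), encoding p85-alpha and its shorter forms, was at 15.3 FPKM in Nrn1-/- cells and 22.5 FPKM in Nrn1+/- cells. Its ratio of 0.680 (95% counting interval 0.640 to 0.722) was the second lowest of the 32. The log2 ratio of -0.53 was lower than that of all but 5.03% of protein-coding genes. Pik3r2, encoding p85-beta, was at 15.2 FPKM in Nrn1-/- cells and 14.8 FPKM in Nrn1+/- cells, a ratio of 1.03 with a counting interval that included 1. Pik3r5, encoding the p101 partner of the gamma isoform, was at 9.51 FPKM in Nrn1-/- cells and 12.5 FPKM in Nrn1+/- cells, a ratio of 0.759. The balance of the p85 genes differed within the libraries, independent of their scaling: Pik3r2 was at 0.995 times the FPKM of Pik3r1 in Nrn1-/- cells and at 0.659 times in Nrn1+/- cells.

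Lipid phosphatases and other brakes act at the membrane. Inpp4b (GRCm38 chromosome 8, 81342556 to 82127914, plus strand), whose product removes a phosphate from the lipid that SHIP1 makes, was the most abundant of all 32 components. It was at 168 FPKM in Nrn1-/- cells and 235 FPKM in Nrn1+/- cells, a ratio of 0.717 (95% counting interval 0.706 to 0.728). Its level exceeded that of 96.1% of protein-coding genes tested. Inpp5d, which encodes SHIP1, the phosphatase that takes PIP3 to a bisphosphate lipid, was at 68.7 FPKM in Nrn1-/- cells and 63.6 FPKM in Nrn1+/- cells, a ratio of 1.08. Pik3ip1, a transmembrane protein that restrains PI3K in T cells, was at 9.30 FPKM in Nrn1-/- cells and 12.03 FPKM in Nrn1+/- cells, a ratio of 0.773 (95% counting interval 0.673 to 0.887). The sequential phosphatase pair went in opposite directions, except at a sum of 1000000 where both were lower, with Inpp4b at 2.45 times the FPKM of Inpp5d in Nrn1-/- cells and 3.69 times in Nrn1+/- cells.

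Phlpp1 (GRCm38 chromosome 1, 106171752 to 106394250, plus strand) encodes a phosphatase that removes the activating phosphate from the tail of AKT. It was at 17.4 FPKM in Nrn1-/- cells and 28.2 FPKM in Nrn1+/- cells, or 1.63-fold lower (ratio 0.615, 95% counting interval 0.592 to 0.638). Its log2 ratio of -0.67 was below that of all but 2.09% of protein-coding genes. Its paralog Phlpp2 was at 2.84 FPKM in Nrn1-/- cells and 2.22 FPKM in Nrn1+/- cells.

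The kinases PDK1 and AKT come next. Akt1 (GRCm38 chromosome 12, 112653821 to 112674884, minus strand), the AKT isoform with the broadest expression, had the highest ratio of the 32. It was at 104 FPKM in Nrn1-/- cells and 73.5 FPKM in Nrn1+/- cells, a ratio of 1.41 (95% counting interval 1.35 to 1.47), and its log2 ratio of 0.49 exceeded that of 89.9% of protein-coding genes. Akt2, best known for insulin signalling, was at 77.8 FPKM in Nrn1-/- cells and 70.1 FPKM in Nrn1+/- cells, a ratio of 1.11. Pdpk1, encoding PDK1, the kinase that phosphorylates the activation loop of AKT, was at 19.0 FPKM in Nrn1-/- cells and 19.3 FPKM in Nrn1+/- cells. Of the summed Akt1 and Akt2 signal, Akt1 made up 57.2% in Nrn1-/- cells and 51.2% in Nrn1+/- cells.

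**Figure D2:**
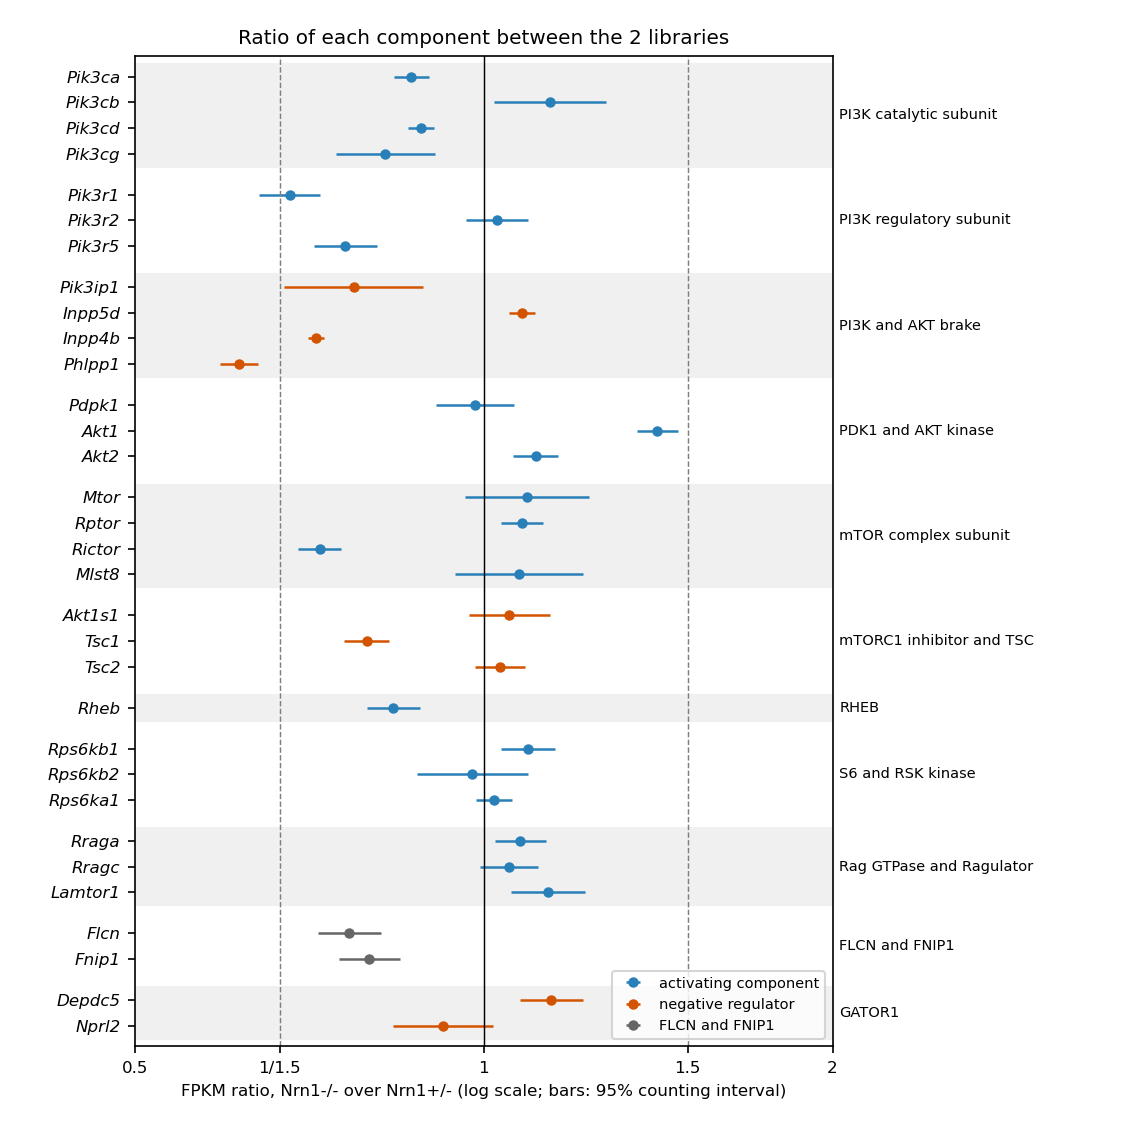
FPKM ratio of each component, Nrn1-/- over Nrn1+/- (horizontal log axis), with bars for the 95% interval of counting error in 1 library per genotype and dashed lines at 1.5-fold. Activating components are blue, negative regulators orange, and Flcn and Fnip1 grey. Both colours lie on both sides of 1, Phlpp1 (0.615) is alone beyond the lower line and Akt1 (1.41) is farthest to the right.

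mTOR is a kinase that works in complex 1 with RAPTOR, encoded by Rptor, and in complex 2 with RICTOR, encoded by Rictor. Mtor was at 15.0 FPKM in Nrn1-/- cells and 13.8 FPKM in Nrn1+/- cells, and Mlst8, a subunit of both complexes, at 8.23 FPKM in Nrn1-/- cells and 7.67 FPKM in Nrn1+/- cells. The counting intervals of both ratios included 1. For Mtor this rests on its shortest coding transcript, of 1003 bases against 8564 for the longest. A longer transcript would give more fragments and a narrower interval, so whether the Mtor interval includes 1 is not settled. Rptor was at 16.1 FPKM in Nrn1-/- cells and 15.0 FPKM in Nrn1+/- cells, a ratio of 1.08. Rictor was at 8.83 FPKM in Nrn1-/- cells and 12.2 FPKM in Nrn1+/- cells, a ratio of 0.721 (95% counting interval 0.691 to 0.753). The subunits that define the complexes parted: Rptor stood at 1.83 times the FPKM of Rictor in Nrn1-/- cells and at 1.22 times in Nrn1+/- cells. Of the other complex 2 genes, Mapkap1, encoding the essential subunit SIN1, was at 38.2 FPKM in Nrn1-/- cells and 34.7 FPKM in Nrn1+/- cells. Mapkap1 did not share the direction of Rictor except at a sum of 1000000. Prr5l was lower as Rictor was, at 1.98 FPKM in Nrn1-/- cells and 2.34 FPKM in Nrn1+/- cells. Prr5 averaged under 1 FPKM.

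Upstream of RHEB, Tsc1 and Tsc2 encode the complex that turns RHEB off. Tsc1 was at 10.6 FPKM in Nrn1-/- cells and 13.4 FPKM in Nrn1+/- cells, a ratio of 0.792 (95% counting interval 0.758 to 0.828). Tsc2, the subunit with the GTPase-activating domain, was at 13.3 FPKM in Nrn1-/- cells and 12.9 FPKM in Nrn1+/- cells, with a counting interval that included 1. Rheb itself was at 36.7 FPKM in Nrn1-/- cells and 43.9 FPKM in Nrn1+/- cells, a ratio of 0.835. Akt1s1, encoding PRAS40, an inhibitor bound to RAPTOR, was at 28.8 FPKM in Nrn1-/- cells and 27.3 FPKM in Nrn1+/- cells. Rheb and Tsc1 were lower together under each scaling, and neither reached 1.5-fold as deposited.

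Below mTOR and PDK1, Rps6kb1 and Rps6kb2 encode the S6 kinases, substrates of mTOR complex 1. Rps6kb1 was at 20.4 FPKM in Nrn1-/- cells and 18.7 FPKM in Nrn1+/- cells, a ratio of 1.09, and Rps6kb2 at 11.8 FPKM in Nrn1-/- cells and 12.1 FPKM in Nrn1+/- cells. Rps6ka1, encoding the kinase RSK1, which is activated by ERK and PDK1, was at 68.5 FPKM in Nrn1-/- cells and 67.1 FPKM in Nrn1+/- cells. The S6 kinase make-up was 63.3% Rps6kb1 in Nrn1-/- cells and 60.7% in Nrn1+/- cells. Exons of Rps6kb2 overlap those of Coro1b and Ptprcap on the other strand over 23.7% of their length, and the sources used here do not say whether counting used strand, so its value is uncertain. The same holds for Mlst8, with 22.5% overlap by Bricd5, and for Lamtor1, with 18.7% overlap by Lrrc51.

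**Figure D3:**
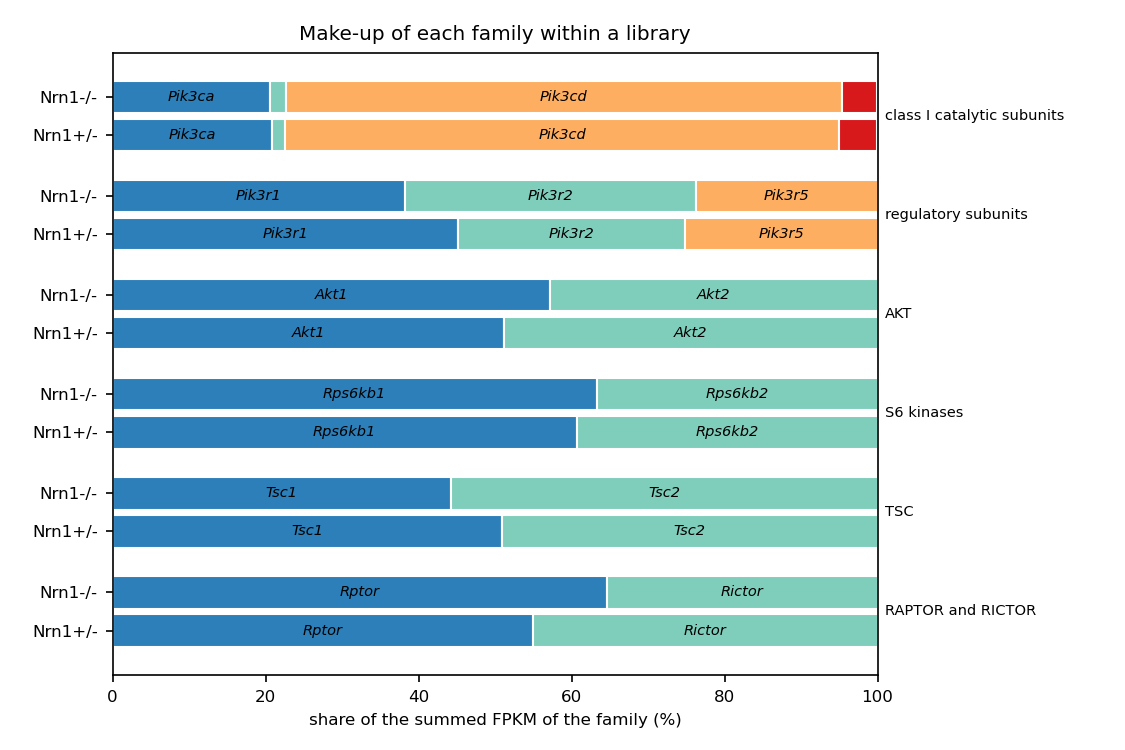
Share of the summed FPKM of a family taken by each paralog or partner (horizontal axis, %), with the Nrn1-/- library above the Nrn1+/- library in each pair. The thin unlabelled segments of the catalytic subunits are Pik3cb (2.12% in Nrn1-/- and 1.64% in Nrn1+/-) and Pik3cg (4.69% in Nrn1-/- and 5.02% in Nrn1+/-). The catalytic shares nearly coincide, while Rptor takes 64.6% of the RAPTOR and RICTOR sum in Nrn1-/- against 55.0% in Nrn1+/-, and Pik3r2 38.0% of the regulatory subunits in Nrn1-/- against 29.7% in Nrn1+/-.

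In the amino acid branch, Rag GTPases, held on the lysosome by the Ragulator complex, bring mTOR complex 1 to RHEB. Rraga was at 49.3 FPKM in Nrn1-/- cells and 45.9 FPKM in Nrn1+/- cells, Rragc at 22.1 FPKM in Nrn1-/- cells and 21.0 FPKM in Nrn1+/- cells, and the Ragulator gene Lamtor1 at 76.9 FPKM in Nrn1-/- cells and 67.7 FPKM in Nrn1+/- cells. All 3 were higher in the Nrn1-/- library, with ratios of 1.07, 1.05 and 1.14, but Rragc was lower with upper-quartile scaling and all 3 were lower at a sum of 1000000. Flcn and Fnip1 encode folliculin and its partner, which act on RagC and are needed to restrain TFE transcription factors. Flcn was at 15.3 FPKM in Nrn1-/- cells and 19.9 FPKM in Nrn1+/- cells, a ratio of 0.766 (95% counting interval 0.719 to 0.815). Fnip1 was at 6.92 FPKM in Nrn1-/- cells and 8.69 FPKM in Nrn1+/- cells, a ratio of 0.797. The paralog Fnip2 ran the other way, at 2.42 FPKM in Nrn1-/- cells and 1.21 FPKM in Nrn1+/- cells. GATOR1 switches RagA off when amino acids are scarce. Its genes Depdc5 and Nprl2 diverged, except at a sum of 1000000: Depdc5 was at 14.1 FPKM in Nrn1-/- cells and 12.3 FPKM in Nrn1+/- cells, and Nprl2 at 13.8 FPKM in Nrn1-/- cells and 15.0 FPKM in Nrn1+/- cells with a counting interval that included 1. The other GATOR1 gene, Nprl3, was lower as Nprl2 was, at 23.1 FPKM in Nrn1-/- cells and 26.9 FPKM in Nrn1+/- cells.

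Activating components were then set against negative regulators. Of the 21 activating components 12 were higher and 9 lower in Nrn1-/- cells, and their median log2 ratio was 0.035. Of the 9 negative regulators 4 were higher and 5 lower, with a median of -0.11. With upper-quartile scaling 9 activating components were higher and 7 negative regulators lower, and at a sum of 1000000 these were 1 and 9. The difference of the medians was 0.14 on the log2 scale. Without Inpp4b and Phlpp1, left out after their values were seen as the lowest of the 9, the difference was -0.0079. Summed FPKM of the activating components was 686 in Nrn1-/- cells and 665 in Nrn1+/- cells, and that of the negative regulators 344 in Nrn1-/- cells and 420 in Nrn1+/- cells. Inpp4b alone was 168 FPKM of the negative sum in Nrn1-/- cells and 235 FPKM in Nrn1+/- cells. The negative regulators have longer coding transcripts, with a median of 6226 bases against 4586 for the activating components. Over 10592 protein-coding genes the log2 ratio had a Spearman correlation of -0.15 with transcript length (genes of 1 pair of libraries, not independent replicates), and over the 32 components it was -0.20. The part of length in the difference was examined by subtracting the median of genes of like length, which gave a difference of 0.21.

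**Figure D4:**
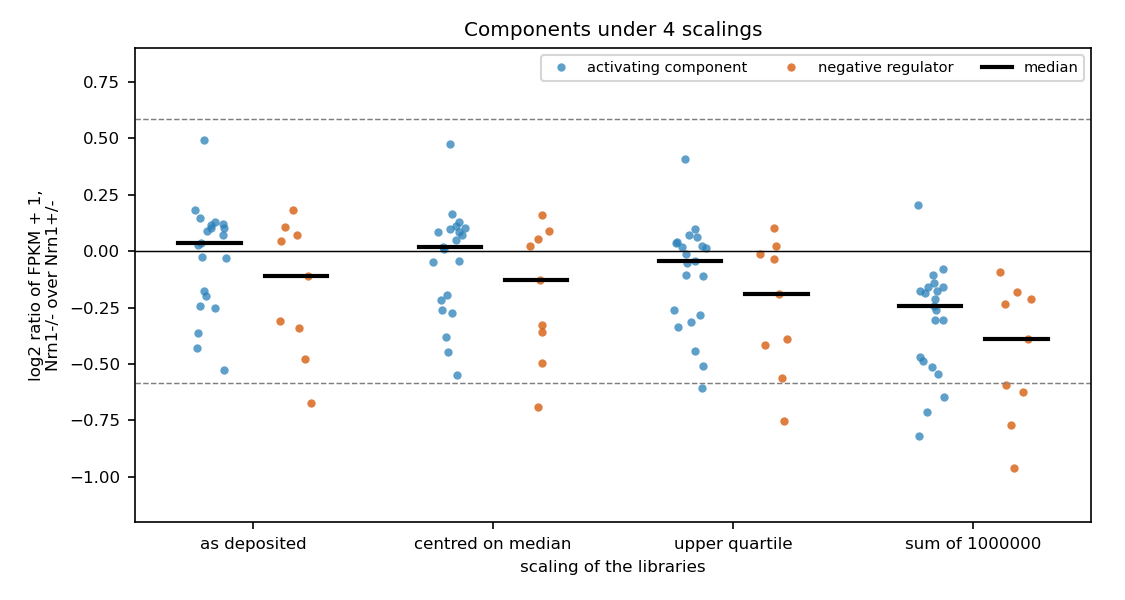
Log2 ratio of FPKM + 1, Nrn1-/- over Nrn1+/- (vertical axis), of each activating component (blue) and negative regulator (orange) under 4 scalings of the libraries, with black bars for medians and dashed lines at 1.5-fold. All points move down together at a sum of 1000000, where the medians are -0.24 for activating components and -0.39 for negative regulators and Akt1 alone stays above 0, while the gap between the medians stays at 0.14 to 0.15.

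Direction of the small ratios depended on how the libraries were scaled to each other. Rescaling each library to a sum of 1000000 FPKM shifted the median log2 ratio of all genes by -0.27. The rescaling put 31 of the 32 components lower in the Nrn1-/- library, all but Akt1, and 8 of them beyond 1.5-fold, where 17.7% of all genes then were. Those 8 were Phlpp1, Pik3r1, Inpp4b, Rictor, Flcn, Pik3r5, Pik3ip1 and Tsc1. Under upper-quartile scaling 11 were higher and 21 lower, with Pik3r1 joining Phlpp1 beyond 1.5-fold, where 7.23% of all genes then were. Ratios between genes of 1 library, such as Rptor to Rictor, are unaffected by scaling.

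Other genes of the pathway were followed in 7 lists of 119 entries chosen by function. Of the 110 genes that averaged 1 FPKM or more, 36 were higher and 74 lower in the Nrn1-/- library (median log2 ratio -0.15). Past 1.5-fold, 1 was higher and 13 were lower. Background shares were 7.5% and 5.27%. These totals include the 15 genes of the FOXO list described below, all of them lower and 6 at least 1.5-fold. That list was drawn up with earlier results for several of its genes known, so the totals support no direction for the pathway. At a sum of 1000000, 12 of these genes were higher and 98 lower, 35 of them beyond 1.5-fold lower where 17.7% of all genes were, and in each list more genes were lower than higher. The other PI3K and phosphatase genes were split 9 to 9 over 18 genes, and the 2 beyond 1.5-fold were both lower. These were the inositol phosphatase genes Inpp5k (25.3 FPKM in Nrn1-/- cells and 40.1 FPKM in Nrn1+/- cells) and Inpp5a (6.38 FPKM in Nrn1-/- cells and 10.2 FPKM in Nrn1+/- cells). The other 3 genes of that list were under 1 FPKM on average, at up to 0.874 FPKM.

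Among 15 other AKT and related kinase genes 4 were higher and 11 lower, with 1 beyond 1.5-fold. That gene was Trib2, a pseudokinase that binds AKT, at 25.5 FPKM in Nrn1-/- cells and 44.8 FPKM in Nrn1+/- cells. Of 8 other mTOR complex and TSC genes 5 were higher and 3 lower. Tbc1d7, the third TSC subunit, had the highest ratio there, at 10.8 FPKM in Nrn1-/- cells and 7.74 FPKM in Nrn1+/- cells. Ddit4, encoding the mTOR complex 1 inhibitor REDD1, was the 1 beyond 1.5-fold, lower at 78.1 FPKM in Nrn1-/- cells and 122 FPKM in Nrn1+/- cells. Of 23 other amino acid sensing genes 8 were higher and 15 lower, and Fnip2 was the 1 beyond 1.5-fold. All 3 sestrins, inhibitors of the pathway, were lower without reaching 1.5-fold on the log2(FPKM + 1) scale, with Sesn1 at 14.8 FPKM in Nrn1-/- cells and 22.3 FPKM in Nrn1+/- cells.

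Substrates and readouts of mTOR complex 1 were divided, with 7 of 15 higher and 8 lower. Polr1a, the large subunit of RNA polymerase I, was at 30.5 FPKM in Nrn1-/- cells and 21.3 FPKM in Nrn1+/- cells, and Eif4e, the cap-binding initiation factor, at 157 FPKM in Nrn1-/- cells and 115 FPKM in Nrn1+/- cells. Eif4ebp1, an inhibitor of that factor that mTOR complex 1 phosphorylates, was at 65.3 FPKM in Nrn1-/- cells and 94.1 FPKM in Nrn1+/- cells. The paralog Eif4ebp2 ran the other way as deposited, at 71.9 FPKM in Nrn1-/- cells and 64.3 FPKM in Nrn1+/- cells. The direction of Eif4ebp2 was not kept under every scaling. Those beyond 1.5-fold were both lower: Pdcd4, a translation inhibitor (55.7 FPKM in Nrn1-/- cells and 86.7 FPKM in Nrn1+/- cells), and Lpin1, a phosphatidate phosphatase (3.69 FPKM in Nrn1-/- cells and 6.06 FPKM in Nrn1+/- cells). Upstream of PI3K, 13 of 16 receptor and adaptor genes were lower and 3 higher. Trat1, a T cell receptor adaptor that binds the p85 subunit, was the 1 beyond 1.5-fold, lower at 42.2 FPKM in Nrn1-/- cells and 64.0 FPKM in Nrn1+/- cells. Ptpn11, the phosphatase SHP2, had the highest ratio, at 40.9 FPKM in Nrn1-/- cells and 29.8 FPKM in Nrn1+/- cells.

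The list of FOXO transcripts and targets was drawn up with earlier results for several of its genes known, so its counts and median describe these genes and support no direction. All 15 genes were lower in Nrn1-/- cells and 6 of them (40%) at least 1.5-fold, beside 5.27% of all genes, with a median log2 ratio of -0.47. Of the FOXO genes themselves, Foxo1 was at 16.3 FPKM in Nrn1-/- cells and 18.6 FPKM in Nrn1+/- cells, Foxo3 at 16.5 FPKM in Nrn1-/- cells and 20.3 FPKM in Nrn1+/- cells, and Foxo4 at 11.2 FPKM in Nrn1-/- cells and 15.6 FPKM in Nrn1+/- cells. The 4 largest differences were those of Txnip, Pink1, Cdkn1b and Ccng2. Txnip, which restrains glucose uptake, was at 68.3 FPKM in Nrn1-/- cells and 130.1 FPKM in Nrn1+/- cells. Pink1, a mitochondrial quality kinase, was at 24.2 FPKM in Nrn1-/- cells and 46.4 FPKM in Nrn1+/- cells.

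Cdkn1b, the cell cycle inhibitor p27, was at 35.0 FPKM in Nrn1-/- cells and 66.2 FPKM in Nrn1+/- cells. Ccng2, a cyclin of non-dividing cells, was at 13.03 FPKM in Nrn1-/- cells and 23.3 FPKM in Nrn1+/- cells. The other 2 beyond 1.5-fold were Klf2 and Il7r. All 15 were also lower under upper-quartile scaling, with 7 beyond 1.5-fold, where 7.23% of all genes were. At a sum of 1000000 all 15 were again lower, with 11 beyond 1.5-fold, where 17.7% of all genes were.

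**Figure D5:**
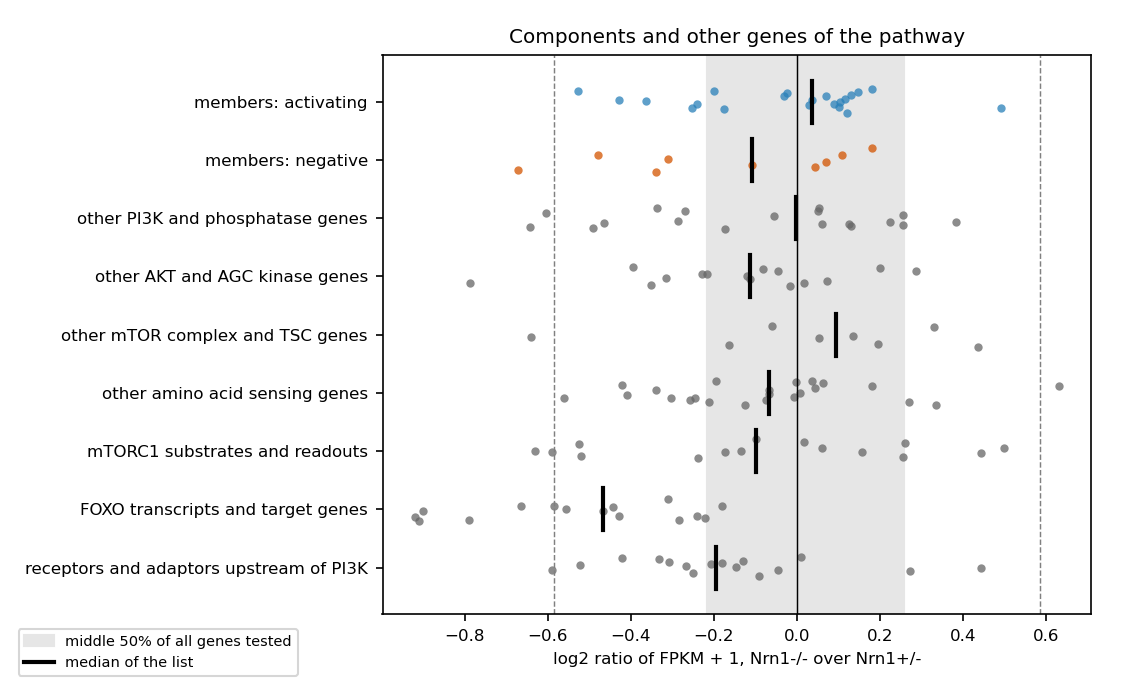
Log2 ratio of FPKM + 1, Nrn1-/- over Nrn1+/- (horizontal axis), of the activating components, the negative regulators and the 7 other lists, 1 point per gene that averaged 1 FPKM or more, a black bar for each median, grey shading for the middle 50% of all genes tested and dashed lines at 1.5-fold. The component lists straddle 0, while all 15 points of the FOXO list lie below it with a median of -0.47.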

How the data were processed

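Poly(A) RNA from sorted effector regulatory T cells was sequenced from 1 library of Nrn1-/- and 1 library of Nrn1+/- cells, grouped by genotype label. The deposited values are FPKM per gene. The unit is inferred from the values and from Cuffnorm, named in the submitters' processing notes with TopHat, Cuffdiff and FastQC and the builds mm10 and GRCm38. The sources used here give no versions, no annotation and no word on scaling one library to the other.

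With Python 3.11.15, pandas 2.3.3 and scipy 1.17.1, rows sharing a symbol were summed (82 symbols, none a component) and log2((Nrn1-/- + 1)/(Nrn1+/- + 1)) was computed with a pseudocount of 1 FPKM, which understates differences of low genes. Counts use the 12344 genes that averaged 1 FPKM or more, of which 10695 are protein-coding. Ratios and factors quoted without log2 carry no pseudocount. The calculation was tested on simulated data.

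FPKM times transcript length less 210 bases, in genes with 1 annotated transcript, was within 0.1 of a whole multiple of 0.0249 FPKM times kilobase for 95.5% of 2486 low values in the Nrn1-/- library. The multiple was 0.0192 for 95.5% of 2775 values in the Nrn1+/- library, where chance gives 20%. Those steps and the shortest coding transcript in GENCODE M21 gave at least 332 fragments per component and library. For genes with longer forms, such as Mtor, this choice lowers the fragment number and widens the interval. Clopper-Pearson intervals of the ratio cover counting error only. PCR copies were not told apart by molecular identifiers, so fragments may be overcounted and the intervals too narrow.

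Gene positions are from GENCODE M21 on GRCm38, 1-based, and promoters from RefSeq GRCm38.p6. A pair of list genes, Castor1 and Castor2, matched through older symbols. Components, lists and the rule for named genes (all components, and the genes of each list past 1.5-fold, at most 4 a direction, or its extremes) were chosen with earlier results of these data known. The sestrins, Phlpp2, Mapkap1, Eif4ebp1, Eif4e, Polr1a, Tbc1d7, Ptpn11, Foxo1, Foxo3 and Foxo4, outside that rule, were named after their values were seen. So were Prr5, Prr5l, Eif4ebp2 and Nprl3. Some list genes are not reported here, and for that reason 1 of them was taken out of the FOXO list, after its value was seen. Alternatives were another pseudocount, 3 other scalings, no filter, a 2-fold threshold, other role assignments and, added after the data were seen, a correction for transcript length and leaving out a pair of regulators. The T cell, Treg and CD8 and NK marker lists had median log2 ratios of -0.15, -0.37 and -0.12.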

Additional observations from a re-analysis of the deposited data

How the results depend on the processing

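No paired analysis was possible because each genotype has 1 library, and for the same reason no library could be left out. No component was at least 1.5-fold higher under any alternative tried. The count of components at least 1.5-fold lower was 1 as reported, 2 with upper-quartile scaling, 8 at a sum of 1000000 and 0 with a 2-fold threshold. The shares of all genes were, in that order, 5.27%, 7.23%, 17.7% and 1.11%. At a sum of 1000000 the median of the activating components was -0.24 and that of the negative regulators -0.39, and after the length correction that of the negative regulators was -0.20. The difference of these medians stayed between 0.14 and 0.21 under every alternative except leaving out Inpp4b and Phlpp1, which gave -0.0079. Other pathway genes at least 1.5-fold higher numbered 1 as reported and 0 with either upper-quartile scaling or a sum of 1000000, and those lower 13 as reported and 35 at a sum of 1000000. For the lower genes the shares of all genes were 5.27% as reported and 17.7% at a sum of 1000000. The FOXO list is part of these totals. The sign of the log2 ratio changed for 5 components with upper-quartile scaling, 15 at a sum of 1000000 and 4 after the length correction, and for none with the other pseudocount, centring or the highest of rows sharing a symbol. Which scaling the authors used is not known, so directions of ratios near 1 are not settled by these files. The ratio of 0.615 for Phlpp1 and 1.41 for Akt1 kept their direction under each scaling.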
